A study of Mus musculus with 15 samples.

Results

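The data described here are RNA-seq counts from primary mouse embryonic fibroblasts made to express Oboxa7, an Obox homeobox gene listed in the count table as Gm8053, set against the same cells given the vector without an insert. The 6 libraries compared, 3 of Oboxa7 and 3 of the empty vector (called control replicates 1 to 3), were chosen by their column labels from the 15 libraries of the series, which also hold 3 each of Oboxa4, Oboxa1 and Crxos. All cells were of strain C57Bl/6 at passage 2, were electroporated with a plasmid that also carries a GFP gene, and were sorted for GFP before RNA was taken, so the controls share the vector, the pulse, the fluorescent protein and the sort. The inserted gene was driven by the constitutive CMV promoter and carried a tag at its end, and the level of protein was not part of these data. The study reports matching its experiments by date, but the labels do not say which libraries share a date. It is not stated whether replicate libraries were grown as separate cultures, and p-values here describe only how these libraries vary, which may be technical variation.

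Homeobox genes encode transcription factors that bind DNA through a homeodomain, and many of them direct cell fate in the embryo. The Obox genes belong to the ETCHbox group, a set of fast-evolving homeobox genes of placental mammals that arose by duplication from Crx, the homeobox gene of photoreceptors, and are expressed in the oocyte and the cleavage-stage embryo rather than in fibroblasts. Oboxa7, Oboxa4 and Oboxa1 come from different subgroups of the Obox cluster. The question put to the data is which fibroblast genes move when an embryonic homeodomain protein of this kind is present.

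The labels were first checked against the inserted gene. The Gm8053 row stood at 63.2, 85.0 and 91.0 CPM (the gene's count scaled to a library total adjusted by TMM, a correction for differences in composition) in Oboxa7 replicates 1, 2 and 3, which is 52.8, 71.0 and 76.0 RPKM for the 1197 bases of the row, and at 0 in the 3 controls. The total count was 33032614 to 42778823 in the Oboxa7 libraries and 31239855 to 33849761 in the controls. Of 13 fibroblast markers, all passed the filter on low counts, with Col1a1 between 6535 and 9769 CPM in the 6 libraries. In both comparisons Col1a1 and Col1a2 were called higher and Pdgfra, a growth factor receptor of fibroblasts, lower. Pdgfra was at 184 to 208 CPM after Oboxa7 and at 270 to 299 CPM in the controls. Pdgfrb was higher than control replicates 2 and 3 alone. Control replicate 1 stood apart from the other controls. In overall profile (root mean square log2 difference over genes), each Oboxa7 library lay 0.530 to 0.556 from control replicate 1 and 0.382 to 0.452 from control replicates 2 and 3, and on the first principal component of the 15 libraries (56.5% of the variance) control replicate 1 had a score of 20.6, where control replicates 2 and 3 were at -13.9 and -13.7 and the Oboxa7 libraries between -16.4 and -14.8. On that component Oboxa1 replicate 3 had a score of 32.9 and the Crxos libraries lay between 31.8 and 32.6, on the side of control replicate 1. The group of all 3 controls thus holds libraries from both sides of this component. Each result is therefore given first against all 3 controls and then against control replicates 2 and 3.

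Genes were tested with edgeR's quasi-likelihood test on the counts. The first fit gave each of the 5 conditions a mean. The second gave control replicate 1 and Oboxa1 replicate 3, which both stand apart on that component, means of their own, so that Oboxa7 was set against control replicates 2 and 3. Calls required an adjusted p (Benjamini-Hochberg) below 0.05 together with a log2 fold change beyond 0.32 in either direction. Among 14012 genes tested, 794 (5.67%) differed from all 3 controls, 466 (3.33%) of them higher and 328 (2.34%) lower, and 1671 (11.9%) differed from control replicates 2 and 3, 1068 (7.62%) higher and 603 (4.3%) lower. Of these, 422 (3.01%) were higher and 278 (1.98%) lower in both comparisons, 0 were called in opposite directions, and 103 were higher and 34 lower by more than 2-fold in both. The genes tested and counted include 7 Obox and Crxos rows, the row of the inserted gene among them. Without such rows 419 genes were higher and 278 lower in both comparisons. All 422 higher genes and 272 of the 278 lower ones had 3 Oboxa7 libraries beyond the 3 controls, a pattern that 16.8% of all genes tested showed upward and 17.2% downward. The median log2 fold change over all genes was -0.001 and 0.005. Each list count below is to be set beside the shares of all genes called, 3.33% and 7.62% higher and 2.34% and 4.3% lower. Counts against all 3 controls fell where Oboxa7 replicate 1 or 2 or control replicate 3 was left out and rose without control replicate 1 or Oboxa1 replicate 3.

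Rbp3 was the gene with the largest rise. It encodes the interphotoreceptor retinoid-binding protein, which carries retinoids between photoreceptors and the pigment epithelium, and in the retina it is a known target of Crx. Rbp3 stood at 1.87, 2.22 and 2.26 CPM in Oboxa7 replicates 1, 2 and 3 and at 0 reads in all 3 controls. With 3 counts over the control group taken as its limit, the level was at least 70.4-fold higher than in all 3 controls and at least 46.0-fold higher than in control replicates 2 and 3 (edgeR adjusted p = 0.000551 and 6.29e-06). Rbp3 passed the filter on low counts only through the Oboxa7 libraries, so these p-values add no support of their own. The same holds for A2m, Chit1, Ccl17 and Epcam, described below. Outside the Oboxa7 libraries, 11 of the other 12 libraries of the series held 0 reads of this gene and the remaining library, of Oboxa1, held 1. On GRCm38.p6 its coordinates are chromosome 14, 33954003 to 33964219.

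Because Crx and its relatives of the Otx type bind a short homeodomain core, the 250 bases before the start site of the genes of largest change were searched for GGATTA on both strands (as GGATTA or TAATCC, with no other motif searched). The windows are RefSeq promoters of GRCm38.p6, of which 6.25% of 32851 held the core. Of the 12 genes of largest rise described below, 10 had a window and 4 of these held it (Rbp3, Chit1, Ccl17 and 1 of the 2 windows of Alpl), and of the 12 of largest fall, 10 had a window and 1 held it (Mmp10). The share over all called genes is void as a check, since fewer than 80% of these genes had a window (305 of 419 raised and 219 of 278 lowered), as of all genes tested (11019 of 14005). Among those with a window the core was held by 10.5% of the raised genes, 5.48% of the lowered ones, 16.4% of the 73 raised by more than 2-fold in both comparisons and 6.25% of all tested, and nothing is read from these shares. A match is a string of letters and not a binding site, and no binding was measured here. Outside these 24 genes, the windows of 6 more named genes were searched, and Megf6, Epcam, Krt8 and Rgs5 held 0 matches while Apoe held the core in 1 of 3 windows and Ly6c1 in 1 of 2. The windows of 5 genes that hold it are shown with the core in capitals, from 250 bases before the start to the base before it. They are those of Rbp3 (chr14:33953753-33954002, plus strand, core beginning 69 bases before the start), Ccl17 (chr8:94810203-94810452, plus strand, 74 bases), Chit1 (chr1:134110992-134111241, plus strand, 235 bases), the first of the 3 windows of Apoe (chr7:19699189-19699438, minus strand, 80 bases) and the lowered Mmp10 (chr9:7502092-7502341, plus strand, 84 bases).
Rbp3: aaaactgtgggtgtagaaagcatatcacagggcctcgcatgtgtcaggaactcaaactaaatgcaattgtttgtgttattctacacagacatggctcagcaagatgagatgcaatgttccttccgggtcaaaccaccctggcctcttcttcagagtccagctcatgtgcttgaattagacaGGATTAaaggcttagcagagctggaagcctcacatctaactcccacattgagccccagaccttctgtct
Ccl17: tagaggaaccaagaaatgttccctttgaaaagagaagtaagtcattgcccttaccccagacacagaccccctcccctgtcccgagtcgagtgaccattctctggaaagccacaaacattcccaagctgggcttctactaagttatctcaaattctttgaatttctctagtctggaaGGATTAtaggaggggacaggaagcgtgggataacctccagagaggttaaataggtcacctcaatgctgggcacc
Chit1: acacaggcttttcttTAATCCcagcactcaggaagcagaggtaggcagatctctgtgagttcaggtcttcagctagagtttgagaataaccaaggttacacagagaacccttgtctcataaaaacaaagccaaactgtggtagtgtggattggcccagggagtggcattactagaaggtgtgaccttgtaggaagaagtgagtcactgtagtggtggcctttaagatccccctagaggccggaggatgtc
Apoe: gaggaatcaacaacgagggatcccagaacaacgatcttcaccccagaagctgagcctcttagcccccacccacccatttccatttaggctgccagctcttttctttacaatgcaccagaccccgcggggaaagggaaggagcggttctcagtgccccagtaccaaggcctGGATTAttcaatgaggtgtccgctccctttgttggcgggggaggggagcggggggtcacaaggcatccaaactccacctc
Mmp10: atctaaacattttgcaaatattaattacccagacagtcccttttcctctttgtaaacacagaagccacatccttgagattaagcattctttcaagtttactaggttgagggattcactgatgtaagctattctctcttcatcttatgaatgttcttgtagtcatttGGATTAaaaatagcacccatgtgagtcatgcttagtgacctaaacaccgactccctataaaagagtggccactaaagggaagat

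Fmo1, a flavin-containing monooxygenase that oxidises nitrogen and sulphur groups of drugs and metabolites, had 5.85, 5.89 and 7.88 CPM in Oboxa7 replicates 1 to 3 and 0, 0.088 and 0.161 CPM in control replicates 1 to 3. Its lowest Oboxa7 library was above the highest control by more than the whole range of either group. The log2 fold change was 6.28 ± 0.46 (SE) against all 3 controls and 5.70 ± 0.35 against controls 2 and 3 (edgeR adjusted p = 1.02e-05 and 1.77e-08). A2m, which encodes the protease inhibitor alpha-2-macroglobulin, had 1.19, 0.911 and 0.957 CPM after Oboxa7 and 0.116, 0 and 0 CPM in the controls. Control replicates 2 and 3 held 0 reads, so that the level was at least 22.1-fold higher than in those libraries, and the log2 fold change against all 3 controls was 4.55 ± 0.70 (edgeR adjusted p = 0.00289). Against control replicates 2 and 3 this call was not made by DESeq2's Wald test.

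Chit1, a secreted chitinase, had 2.1, 2.61 and 2.26 CPM after Oboxa7 and 0.144, 0.206 and 0.064 CPM in the controls, and its log2 fold change was 4.02 ± 0.36 (SE) against all 3 controls and 4.04 ± 0.38 against controls 2 and 3. Ccl17, a chemokine that draws T cells through the receptor Ccr4, had 1.249, 1.79 and 1.68 CPM after Oboxa7 and 0.029, 0.206 and 0.064 CPM in the controls. The log2 fold change of Ccl17 was 3.93 ± 0.44 (SE) against all 3 controls and 3.48 ± 0.42 against controls 2 and 3. Both genes were near the detection limit in every control and at more than 1 CPM in each Oboxa7 library. Slpi, an inhibitor of leukocyte serine proteases, had 2.5, 3.01 and 2.96 CPM after Oboxa7 and 0.491, 0.206 and 0.482 CPM in the controls, with a log2 fold change of 2.84 ± 0.31 (SE) against all 3 controls and 3.05 ± 0.30 against controls 2 and 3. Alpl, the tissue-nonspecific alkaline phosphatase of bone and of early germ cells, had 0.937, 1.4 and 1.05 CPM after Oboxa7 and 0.289, 0.088 and 0.225 CPM in the controls, with log2 fold changes of 2.47 and 2.84. Each of these 4 genes kept its call in both comparisons in every alternative, except that Alpl was not tested where 1 CPM in 3 libraries was required.

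The other genes of largest rise had various roles. Gucy1a3, the alpha subunit of the nitric oxide receptor soluble guanylate cyclase (Gucy1a1 in RefSeq), had 2.73, 2.58 and 2.26 CPM after Oboxa7 and 0.173, 0.471 and 0.257 CPM in the controls, with log2 fold changes of 3.05 and 2.76. Gja5, a connexin of arteries and cardiac atria, had 7.78, 7.77 and 4.83 CPM after Oboxa7 and 0.375, 1.68 and 1.54 CPM in the controls, with log2 fold changes of 2.50 and 2.06. Here control replicate 1 was the lowest of the controls, and without Oboxa7 replicate 1 or 2 the call against all 3 controls was lost. Egfl6, a secreted protein with EGF repeats, had 7.12, 7.77 and 7.09 CPM after Oboxa7 and 2.48, 1.59 and 1.6 CPM in the controls, with log2 fold changes of 1.95 and 2.19, and Gdpd2, a membrane glycerophosphodiesterase, had 2.33, 2.73 and 2.03 CPM after Oboxa7 and 0.116, 0.706 and 0.61 CPM in the controls, with log2 fold changes of 2.31 and 1.82. The call of Gdpd2 against all 3 controls was lost without Oboxa7 replicate 1 or 2 or control replicate 3. Cxcl15, a chemokine best known from lung epithelium, had log2 fold changes of 1.93 and 1.84, and against all 3 controls its adjusted p of 0.0462 (edgeR) passed in only 8 of 23 alternatives. All 12 of these genes had 3 Oboxa7 libraries above the 3 controls, as the rule that chose them requires.

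**Figure D1:**
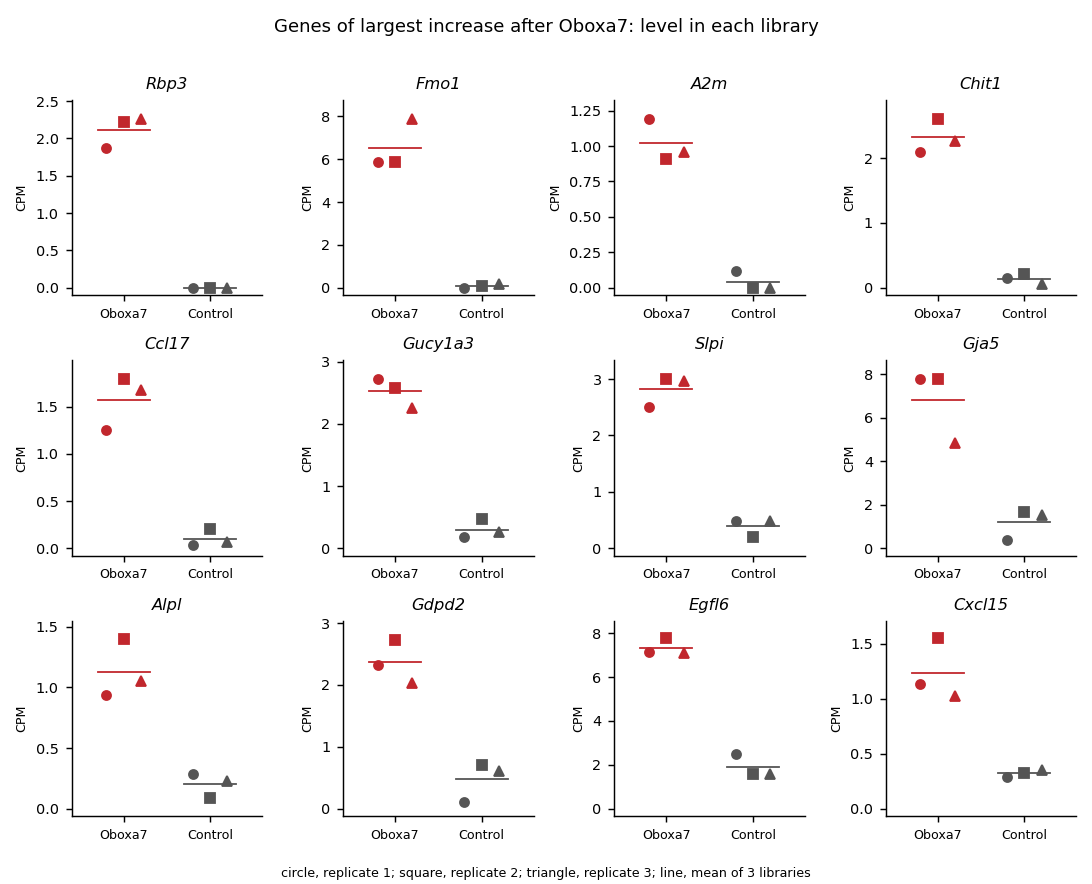
Level in CPM (vertical axes, linear from 0) of the 12 genes of largest rise, in the 3 Oboxa7 libraries (red) and the 3 controls (grey), with a symbol per replicate and a line at the mean of 3 libraries. Rbp3 lies at 0 in all 3 controls, and no Oboxa7 library of any of the 12 genes reaches down to a control.

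Among the 12 genes of largest fall were 3 secreted metalloproteases, which cut matrix proteins. Mmp13, a collagenase, had 8.26, 7.07 and 7.61 CPM in Oboxa7 replicates 1 to 3 and 33.8, 36.3 and 32.2 CPM in control replicates 1 to 3. All 3 controls, replicate 1 included, were above 30 CPM, and all 3 Oboxa7 libraries were below 10 CPM. The log2 fold change was -2.16 ± 0.58 (SE) against all 3 controls and -2.16 ± 0.18 against controls 2 and 3 (edgeR adjusted p = 0.035 and 9.81e-07). Mmp10, a stromelysin, had 0.255, 0.425 and 0.257 CPM after Oboxa7 and 1.59, 1.47 and 1.45 CPM in the controls, with log2 fold changes of -2.27 and -2.23. Mmp3, another stromelysin next to Mmp10 and Mmp13 on chromosome 9, had 53.4, 50.3 and 60.8 CPM after Oboxa7 and 93.2, 168 and 176 CPM in the controls, with log2 fold changes of -1.41 and -1.65. The call of Mmp13 against all 3 controls was lost without any single Oboxa7 library or control replicate 2 or 3, and that of Mmp10 in 14 of 23 alternatives, whereas against control replicates 2 and 3 all 3 metalloproteases kept their calls throughout.

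The other genes of largest fall had various roles. Ptpn22, a tyrosine phosphatase that restrains lymphocyte receptor signalling, had 2.9, 2.34 and 3.99 CPM after Oboxa7 and 12.6, 15.5 and 16.2 CPM in the controls, with a log2 fold change of -2.26 ± 0.36 (SE) against all 3 controls and -2.34 ± 0.23 against controls 2 and 3. Lgr6, a receptor for R-spondins, had 7.15, 6.1 and 8.96 CPM after Oboxa7 and 34.2, 17.1 and 19 CPM in the controls, with log2 fold changes of -1.66 and -1.27. Control replicate 1 was the highest library here, and the call against all 3 controls was lost in 10 of 23 alternatives. Ccbe1, a secreted factor of lymphatic vessel growth, had 25.2, 18.6 and 26.5 CPM after Oboxa7 and 85.8, 61.8 and 61.4 CPM in the controls, with log2 fold changes of -1.57 and -1.39. The low-level genes Cd300lb, a receptor of myeloid cells (-1.64 and -1.57), Ip6k3, an inositol phosphate kinase (-1.57 and -1.42), Evi2a, a membrane protein (-1.46 and -1.31), Mcpt8, a granule protease (-1.55 and -0.90), Prl2c3, a prolactin-like hormone (-1.42 and -1.33), and 1700012B09Rik (-2.32 and -1.81) were also called lower in both comparisons. Prl2c3 has close relatives with which it may share reads, and how reads matching several genes were counted is not stated. The call of Mcpt8 was lost in 11 of 23 alternatives against all 3 controls.

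**Figure D2:**
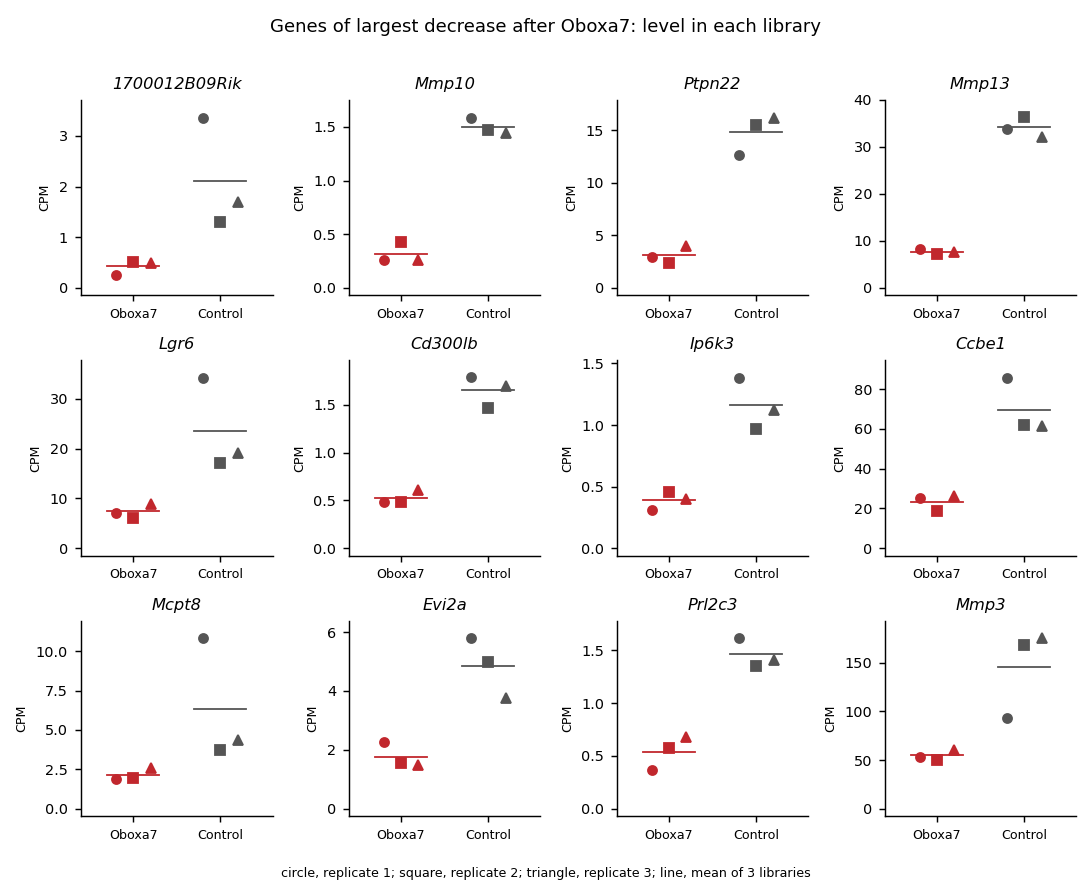
Level in CPM (vertical axes, linear from 0) of the 12 genes of largest fall, in the 3 Oboxa7 libraries (red) and the 3 controls (grey), with a symbol per replicate and a line at the mean of 3 libraries. For Lgr6, Mcpt8 and 1700012B09Rik the circle of control replicate 1 lies above the other controls, and for Mmp3 it lies below them.

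Genes that set Oboxa7 apart from the other Obox genes were sought in direct tests against Oboxa4 and against Oboxa1 replicates 1 and 2 in the second fit, in which 227 (1.62%) and 146 (1.04%) genes were called higher after Oboxa7 and 267 (1.91%) and 99 (0.707%) lower. In the first fit, with all 3 Oboxa1 libraries, these were 19 (0.136%) and 14 (0.0999%) higher and 7 (0.05%) and 3 (0.0214%) lower. Among the 12 genes of largest rise, Rbp3, Fmo1, A2m, Chit1, Ccl17, Slpi and Alpl were called higher after Oboxa7 than after both other Obox genes. Gucy1a3 (-0.18 ± 0.19 and -0.31 ± 0.21, SE, from Oboxa4 and Oboxa1) and Gja5 (-0.15 ± 0.16 and -0.05 ± 0.18) were not called in either test. Fmo1 was at 0.106 to 0.351 CPM in the Oboxa4 libraries and at 0.169 to 0.415 CPM in the Oboxa1 libraries, and the log2 difference of Oboxa7 was 4.66 ± 0.25 (SE) from Oboxa4 and 4.74 ± 0.30 from Oboxa1. Chit1 was at 0.177 to 0.371 CPM after Oboxa4 and 0.159 to 0.356 CPM after Oboxa1, with log2 differences of 3.11 ± 0.28 and 3.00 ± 0.33. Neither gene's ranges touched those of Oboxa7. The differences were 4.15 ± 0.39 and 2.68 ± 0.37 for Ccl17 and 3.21 ± 0.26 and 2.63 ± 0.28 for Slpi, and those of Fmo1, Chit1, Ccl17, Slpi and Rbp3 were also called in the first fit. That of Ccl17 from Oboxa1 was lost without Oboxa1 replicate 1.

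Apoe, the apolipoprotein that carries cholesterol out of cells, was higher after Oboxa7 than after the other Obox genes in the second fit. It had 11.2, 15.7 and 11.5 CPM after Oboxa7 and 3.35, 3.53 and 3.85 CPM in the controls, 6.63 to 8.59 CPM after Oboxa4 and 5.04 to 6.83 CPM after Oboxa1. Every Oboxa7 library was above every library of the other 4 conditions. The log2 fold change was 1.84 ± 0.16 (SE) against all 3 controls and 1.79 ± 0.16 against controls 2 and 3 (edgeR adjusted p = 5.26e-05 and 1.66e-06), and the differences from Oboxa4 and Oboxa1 were 0.75 ± 0.13 and 1.03 ± 0.15. Ly6c1, a surface protein of the Ly6 family whose close copies may share its reads, had 79.8, 89.7 and 79.2 CPM after Oboxa7 and 28.9, 33.1 and 34.4 CPM in the controls, and differed from Oboxa4 and Oboxa1 by 0.68 ± 0.06 and 0.50 ± 0.07. Rgs5, a G-protein regulator of pericytes, differed by 0.96 ± 0.11 and 0.73 ± 0.12, Gsta4, a glutathione transferase that clears lipid aldehydes, by 0.81 ± 0.10 and 0.65 ± 0.12, and Epcam, an epithelial adhesion molecule at 0.511, 0.668 and 0.77 CPM after Oboxa7 and 0.202, 0.118 and 0.193 CPM in the controls, by 2.18 ± 0.35 and 2.40 ± 0.43. In the first fit Apoe was not called against Oboxa4 (adjusted p = 0.0662), Rgs5 against neither (0.0725 and 0.158) and Gsta4 not against Oboxa1 (0.0536).

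Other genes were lower after Oboxa7 than after both other Obox genes in the second fit. The proteoglycan lumican (Lum), which spaces collagen fibrils, was at 39, 40.9 and 29.7 CPM after Oboxa7, 23.8, 43.6 and 39.2 CPM in the controls, 61.5 to 70.9 CPM after Oboxa4 and 56.7 to 74.5 CPM after Oboxa1. The Oboxa7 libraries overlapped the controls and lay below all libraries of the other 2 Obox genes, with log2 differences of -0.89 ± 0.10 and -0.85 ± 0.11. Mylip, a ubiquitin ligase that degrades the LDL receptor and was called higher than control replicates 2 and 3 alone, differed by -0.79 ± 0.10 and -0.85 ± 0.11, and the complement gene C4b, which has a close copy, by -0.97 ± 0.14 and -0.72 ± 0.16. Col8a2, a short-chain collagen, differed by -0.84 ± 0.16 and -0.75 ± 0.18 while called higher than the controls (1.30 and 1.14), and so did Cxcl15 (-1.03 ± 0.20 and -0.96 ± 0.22). None of these 5 differences was called in the first fit against Oboxa1, and of the 5 only that of C4b was called there against Oboxa4. Megf6, the shared gene with EGF repeats, had 16.9, 18.3 and 13.5 CPM after Oboxa7 and 5, 3.94 and 3.85 CPM in the controls and log2 fold changes of 1.92 and 2.05, and its log2 difference after Oboxa7 was -0.46 ± 0.12 from Oboxa4 and -0.58 ± 0.14 from Oboxa1. Neither was called in the first fit (edgeR adjusted p = 0.402 and 0.463), and the Oboxa7 libraries overlapped those of Oboxa1 (15.8 to 27.2 CPM).

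**Figure D3:**
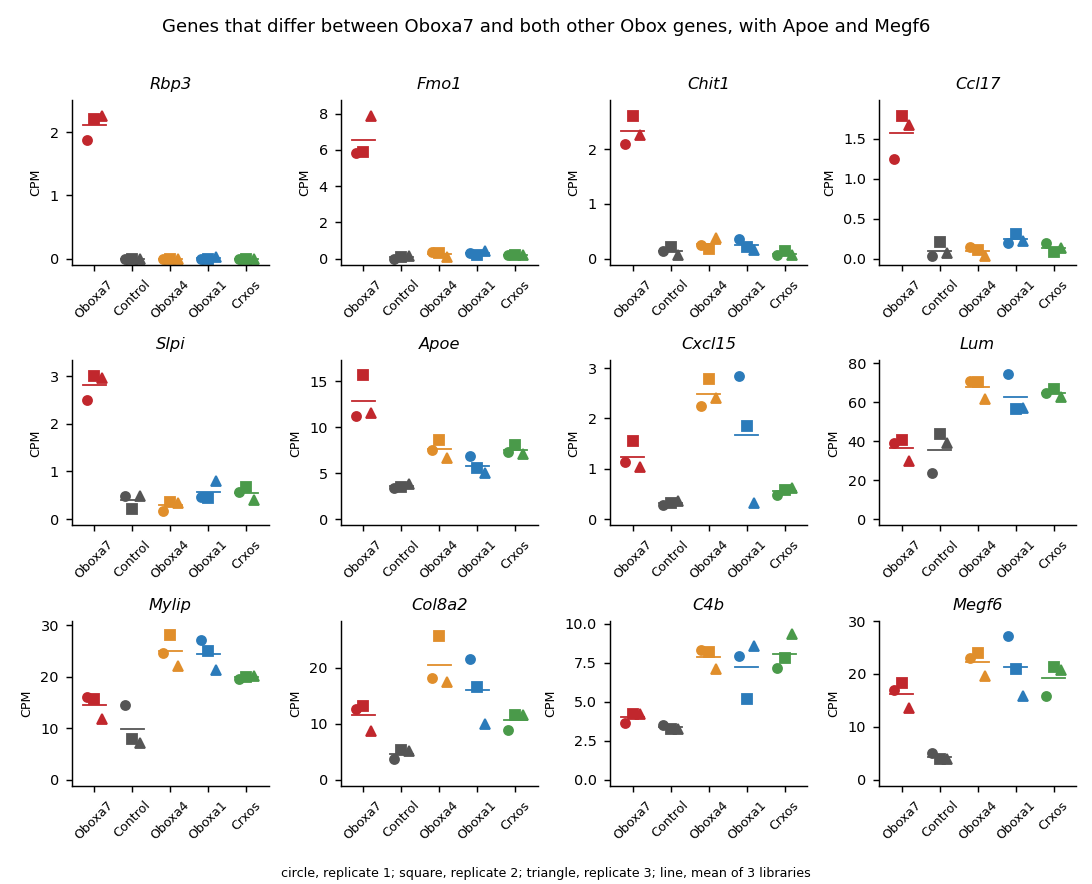
Level in CPM (vertical axes, linear from 0) of 12 genes in all 15 libraries, grouped by inserted gene, with a symbol per replicate and a line at the mean of 3 libraries. Rbp3, Fmo1, Chit1, Ccl17 and Slpi are raised in the Oboxa7 libraries alone, Apoe is highest there, and Lum, Mylip, C4b, Col8a2, Cxcl15 and Megf6 lie lower there on average than after Oboxa4 or Oboxa1.

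Contractile genes of smooth muscle were among those that rose. Acta2, the actin of smooth muscle and myofibroblasts, had 4409.5, 4876 and 4078 CPM after Oboxa7 and 2779, 2469.6 and 2439 CPM in the controls, with a log2 fold change of 0.80 ± 0.11 (SE) against all 3 controls and 0.86 ± 0.09 against controls 2 and 3 (edgeR adjusted p = 0.00216 and 7.16e-06). Myh11, the smooth muscle myosin heavy chain, had 30.4, 28.6 and 22.4 CPM after Oboxa7 and 15.8, 7.56 and 7.42 CPM in the controls, with log2 fold changes of 1.40 and 1.85. In both genes every Oboxa7 library was above every control. The actin filament nucleator Lmod1 (0.53 and 0.86) and enteric actin Actg2 (0.62 and 1.16) were called only against control replicates 2 and 3, control replicate 1 lying within or near the Oboxa7 range at 99.2 CPM of Lmod1 and 88.7 CPM of Actg2. Of 17 contractile genes tested, 7 were higher and 0 lower than all 3 controls and 13 higher and 0 lower than control replicates 2 and 3, beside 3.33% and 7.62% of all genes called higher, and the list's median log2 fold change was 0.45 and 0.62. Left-out libraries moved the first count between 4 (without Oboxa7 replicate 2 or control replicate 3) and 10 (without control replicate 1 or Oboxa1 replicate 3), and the second between 11 and 13.

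Marker genes of neighbouring cell types moved beside these. Of 7 pericyte markers tested, 2 were higher than all 3 controls and 5 than control replicates 2 and 3. Among all genes tested 3.33% and 7.62% were higher. The summed level of the 7 pericyte markers was 449 to 490.0 CPM after Oboxa7 and 421 to 451 CPM in the controls. Rgs5 had log2 fold changes of 1.19 and 0.98 and the adhesion molecule Mcam 0.42 and 0.73. Of 7 skeletal muscle markers, 1 and 4 were higher, among them the fast myosins Myh1 (2.45 and 1.88) and Myh2 (2.28 and 1.71), both called only against control replicates 2 and 3. Summed over the 7 muscle markers, the level was 70.9 to 78.6 CPM after Oboxa7. It was 109, 50.8 and 52 CPM in control replicates 1, 2 and 3, so the highest sum was in a control. The regulators that define that lineage were at or near 0, with 1 read of Myod1, 0 of Myf5 and 1 of Myog over the 6 libraries. The part of other cells in these results was not tested, and in bulk RNA more cells of a type and more RNA per cell cannot be told apart.

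Among genes of the extracellular matrix, the small leucine-rich proteoglycans had the highest list median. These proteins bind collagen and set fibril spacing. Ogn (osteoglycin) had 424, 438 and 363 CPM after Oboxa7 and 121, 216 and 179.9 CPM in the controls, a fold change of 2.37 and 2.06, and Aspn (asporin) had 265, 285 and 211 CPM after Oboxa7 and 101.3, 120.5 and 87.6 CPM in the controls, with log2 fold changes of 1.30 and 1.28. In both genes Oboxa7 replicate 3 was the lowest of its group and still above the highest control. Fmod (fibromodulin) and Prelp had log2 fold changes of 0.80 and 1.00 and 0.69 and 0.77. Of 11 proteoglycan genes, 5 were higher and 0 lower than all 3 controls and 6 higher and 0 lower than control replicates 2 and 3, with a median of 0.69 and 0.64. The first count was 2 without Oboxa7 replicate 1 or 2. Among all genes tested 3.33% and 7.62% were higher.

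Among 23 collagen chains, 7 were higher and 0 lower than all 3 controls and 12 higher and 2 lower than control replicates 2 and 3 (2 to 10 and 8 to 14 higher as each library was left out, lowest without Oboxa7 replicate 1 and without control replicate 3). Beside these counts stand 3.33% and 7.62% of all genes called higher and 2.34% and 4.3% lower. Col3a1, the fibrillar collagen of vessels and skin, had 2725, 2779 and 2075 CPM after Oboxa7 and 1207, 1632 and 1468 CPM in the controls, with log2 fold changes of 0.82 and 0.70. Col1a1 (0.44 and 0.44), Col1a2 (0.38 and 0.34) and Col27a1 (0.94 and 0.99) were also higher in both comparisons. Col18a1, the basement membrane collagen that yields endostatin, was lower than control replicates 2 and 3 only (-0.36 and -0.58), with control replicate 1 at 230.3 CPM below the Oboxa7 libraries. Of the elastic fibre genes, elastin (Eln, 1.38 and 1.22), Fbln5 (0.42 and 0.45) and Emilin1 (0.52 and 0.48) rose in both comparisons, and of 17 genes 4 were higher and 1 lower than all 3 controls and 6 higher and 1 lower than control replicates 2 and 3, although 0 were higher than all 3 controls without Oboxa7 replicate 1 or 2.

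Matrix enzymes moved in both directions. Adamts5, an aggrecanase, had 69.5, 72.1 and 69.5 CPM after Oboxa7 and 41.4, 36.5 and 37.5 CPM in the controls, with log2 fold changes of 0.87 and 0.93, and Reck, a membrane inhibitor of metalloproteases, 0.47 and 0.44. With Mmp3, Mmp10 and Mmp13 lower, 7 were higher and 3 lower than all 3 controls and 11 higher and 3 lower than control replicates 2 and 3 of 23 proteases and inhibitors. Over all genes tested, 3.33% and 7.62% were called higher and 2.34% and 4.3% lower. Collagen cross-linking genes Lox (0.36 and 0.62) and Loxl2 (0.54 and 0.93) and the matricellular Postn (0.39 and 0.97) were called higher only against control replicates 2 and 3. Postn was at 1981 CPM in control replicate 1, above the 1614, 1701 and 1355 CPM of the Oboxa7 libraries. Spp1 (osteopontin), a phosphoprotein of bone and inflamed tissue, was lower in both, with 1115, 1049 and 1059 CPM after Oboxa7 and 1774, 1758 and 1681 CPM in the controls and log2 fold changes of -0.69 and -0.68.

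**Figure D4:**
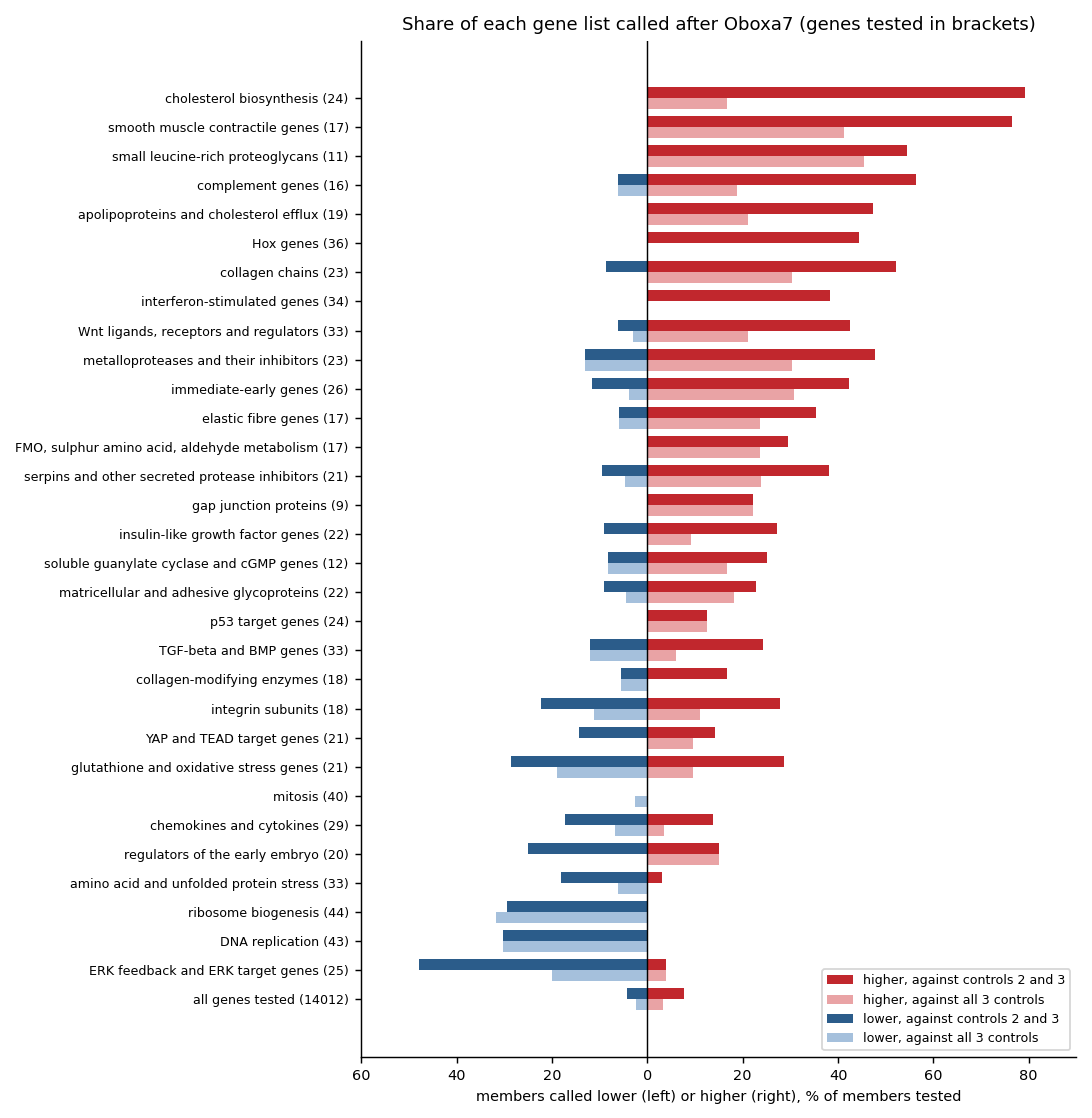
Members called higher (to the right, red) or lower (to the left, blue) as a percentage of the members tested, for 31 gene lists and for all 14012 genes tested, with dark bars for control replicates 2 and 3 and pale bars for all 3 controls. DNA replication and ribosome biogenesis have bars only to the left, and Hox and interferon-stimulated genes have a bar only for control replicates 2 and 3.

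Some genes of DNA replication and of ribosome assembly were lower, by small amounts. Mcm6, a subunit of the replicative helicase, had 162, 159 and 176 CPM after Oboxa7 and 213, 220.4 and 222 CPM in the controls, with a log2 fold change of -0.40 ± 0.07 (SE) against all 3 controls and -0.42 ± 0.05 against controls 2 and 3 (edgeR adjusted p = 0.00715 and 3.14e-05), and Mcm3 (-0.37 and -0.36), Mcm5 (-0.40 and -0.43) and the licensing factor Cdt1 (-0.52 and -0.44) changed by like amounts. In each of these 4 genes all 3 controls lay above all 3 Oboxa7 libraries. Of 43 replication genes, 0 were higher and 13 lower than all 3 controls and 0 higher and 13 lower than control replicates 2 and 3, with a median of -0.29 and -0.25, beside 2.34% and 4.3% of all genes called lower. No member was higher at an unadjusted p under 0.05 or by DESeq2 either, and where the fold threshold itself was tested (glmTreat) 0 of the 43 were called lower in either comparison. The lower count ranged from 7 (without Oboxa7 replicate 1 or 2) to 19 against all 3 controls and from 6 (without control replicate 3) to 17 against control replicates 2 and 3. Of 40 mitosis genes, only Bub1, a spindle checkpoint kinase, passed, against all 3 controls (-0.33 and -0.26). At an unadjusted p under 0.05, 17 and 14 mitosis genes were lower, and DESeq2 called 1 and 0.

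Ddx21, an RNA helicase of the nucleolus, had 214, 206 and 221 CPM after Oboxa7 and 266, 285 and 288 CPM in the controls, with log2 fold changes of -0.39 and -0.42. The ribosome assembly factors Dkc1, a pseudouridine synthase (-0.50 and -0.51), Grwd1 (-0.49 and -0.48) and Noc2l (-0.34 and -0.35) fell as well. Of 44 genes of ribosome biogenesis, 0 were higher and 14 lower than all 3 controls and 0 higher and 13 lower than control replicates 2 and 3, with a median of -0.28 and -0.28. Against all 3 controls the lower count was 1 without Oboxa7 replicate 1, and against control replicates 2 and 3 it was 6 without control replicate 3 and 21 without control replicate 2. At an unadjusted p under 0.05, 39 and 40 of the 44 were lower and 0 higher, and by glmTreat 0 were called in either comparison. These changes were small, near the call threshold of 0.32 on the log2 scale. Over all genes tested, 2.34% and 4.3% were called lower.

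Genes of cholesterol biosynthesis were called higher in numbers that depend on control replicate 1. Hmgcs1, which makes the precursor of mevalonate, had 237, 227 and 234 CPM after Oboxa7 and 176, 151 and 129 CPM in the controls, with log2 fold changes of 0.61 and 0.73, and Cyp51 (0.52 and 0.63) and Sqle, the squalene epoxidase (0.38 and 0.46), were also called in both comparisons. Control replicate 1 lay above the other controls and below the Oboxa7 libraries in all 3 genes. Lss, the lanosterol synthase, was at 69.7 CPM in control replicate 1 and 70.9, 69.3 and 71.3 CPM after Oboxa7, and was called only against control replicates 2 and 3 (0.33 and 0.52). Of 24 genes of the pathway, 4 were higher and 0 lower than all 3 controls and 19 higher and 0 lower than control replicates 2 and 3, while the first fit called 15 of them once control replicate 1 was left out. Of 19 genes of apolipoproteins and cholesterol efflux, 4 were higher and 0 lower than all 3 controls and 9 higher and 0 lower than control replicates 2 and 3, with Clu (clusterin) at 1.16 and 0.81 beside Apoe. For both lists the shares of all genes called higher were 3.33% and 7.62%.

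Several genes of small-molecule metabolism rose with Fmo1. Cdo1, which oxidises cysteine, had 30.2, 34.2 and 30.9 CPM after Oboxa7 and 13.6, 10.7 and 8.12 CPM in the controls, with a log2 fold change of 1.55 ± 0.16 (SE) against all 3 controls and 1.75 ± 0.13 against controls 2 and 3 (edgeR adjusted p = 0.000325 and 2.63e-07). Aldh1l1, a folate enzyme, had log2 fold changes of 1.07 and 0.94 and the aldehyde oxidase Aox1 0.42 and 0.49. The glutathione transferase Gsta4 (0.99 and 0.91) was higher, while Hmox1, the haem oxygenase (-0.60 and -0.62), and Txnrd1, a thioredoxin reductase (-0.35 and -0.38), both known targets of the oxidative stress factor Nrf2, were lower. The serine synthesis enzyme Phgdh fell, with 73.5, 82.3 and 75 CPM after Oboxa7 and 123, 103 and 121 CPM in the controls and log2 fold changes of -0.59 and -0.54. Of 21 glutathione and oxidative stress genes, 2 were higher and 4 lower than all 3 controls and 6 higher and 6 lower than control replicates 2 and 3. Among all genes tested 3.33% and 7.62% were higher and 2.34% and 4.3% lower.

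Immediate-early genes, which are switched on within minutes of a growth stimulus, were called higher more often than lower. Fos had 89.9, 126 and 103 CPM after Oboxa7 and 32.4, 46 and 53.3 CPM in the controls, with a log2 fold change of 1.28 ± 0.23 (SE) against all 3 controls and 1.10 ± 0.13 against controls 2 and 3 (edgeR adjusted p = 0.00676 and 1.94e-05). Arc had 72.7, 85.2 and 65.1 CPM after Oboxa7 and 29.1, 41 and 39.8 CPM in the controls, with log2 fold changes of 1.02 and 0.88. Oboxa7 replicate 2 was the highest library in both. Btg2, an antiproliferative protein (0.83 and 0.93), and Zfp36, which destabilises mRNAs (0.65 and 0.81), rose as well. Of 26 genes, 8 were higher and 1 lower than all 3 controls and 11 higher and 3 lower than control replicates 2 and 3, with the first count at 3 without Oboxa7 replicate 2 and the second at 7 without control replicate 3. Genes listed as targets of ERK signalling were called lower more often than higher. Ngef, a guanine nucleotide exchange factor, had 9.93, 9.69 and 11.9 CPM after Oboxa7 and 17.8, 19 and 22.7 CPM in the controls, with log2 fold changes of -0.92 and -0.98, and Fosl1, a late-responding Fos relative, had 17.1, 16.2 and 18.6 CPM after Oboxa7 and 24.1, 25.7 and 26.5 CPM in the controls, with -0.56 and -0.59. Plaur, the urokinase receptor (-0.38 and -0.47), fell in both comparisons, and Areg, an EGF receptor ligand, only against control replicates 2 and 3 (-0.90 and -1.19). Of 25 ERK feedback and target genes, 1 was higher and 5 lower than all 3 controls and 1 higher and 12 lower than control replicates 2 and 3, with a median of -0.24 and -0.30. The lower count was 9 in the first fit without control replicate 1 and 8 in the second without control replicate 3. For both lists the shares of all genes called were 3.33% and 7.62% higher and 2.34% and 4.3% lower.

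Among Wnt genes, the R-spondin receptor Lgr4 rose while its relative Lgr6 fell. Lgr4 had 115, 111 and 107 CPM after Oboxa7 and 73, 63 and 59 CPM in the controls, with a log2 fold change of 0.77 ± 0.09 (SE) against all 3 controls and 0.86 ± 0.08 against controls 2 and 3. Sfrp2, a secreted Wnt modulator, had log2 fold changes of 0.82 and 0.97, while the Wnt inhibitor Dkk2 (-0.23 and -0.54) was called lower, only against control replicates 2 and 3. Of 33 Wnt genes, 7 were higher and 1 lower than all 3 controls and 14 higher and 2 lower than control replicates 2 and 3, with 2 higher than all 3 controls without Oboxa7 replicate 1 or 2 or control replicate 3. Of 33 genes of the TGF-beta and BMP family, 2 were higher and 4 lower than all 3 controls and 8 higher and 4 lower than control replicates 2 and 3. Beside these and the Wnt counts stand 3.33% and 7.62% of all genes called higher and 2.34% and 4.3% lower. The ligand Tgfb3 rose, with 387, 378 and 349 CPM after Oboxa7 and 219, 227 and 214 CPM in the controls and log2 fold changes of 0.75 and 0.75, and Bmp2 (-0.78 and -1.0) and the ligand traps Grem1 (-0.56 and -0.65) and Fst (-0.47 and -0.64) fell. Igfbp2, a binding protein of insulin-like growth factors, had 53.4, 64.6 and 43.1 CPM after Oboxa7 and 27.9, 20.6 and 21.8 CPM in the controls, with log2 fold changes of 1.20 and 1.34.

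Of 16 complement genes, 3 were higher and 1 lower than all 3 controls and 9 higher and 1 lower than control replicates 2 and 3. The shares of all genes called, here and for the markers below, were 3.33% and 7.62% higher and 2.34% and 4.3% lower. The protease genes of the first component, C1s1 and C1ra, which have close copies, had log2 fold changes of 1.5 and 1.22 and 0.77 and 0.66, and C1s1 had 39, 39.7 and 32.5 CPM after Oboxa7 and 7.62, 17.4 and 14.4 CPM in the controls. Chit1, Ccl17, Apoe and complement genes are also expressed by macrophages. Of 5 macrophage markers tested, 1 was higher in both comparisons, Cd68 (0.84 and 0.74), a lysosomal protein that fibroblasts also express, and 1 was lower than control replicates 2 and 3, the mannose receptor Mrc1 (-0.92 and -1.08), and the summed level of the 5 was 12.4 to 13.2 CPM after Oboxa7 and 9.59 to 12.1 CPM in the controls. The markers Adgre1, Tyrobp, C1qa, C1qb and C1qc had 0 reads in all 6 libraries. Summed over Oboxa7 and control libraries together, Laptm5 had 38 reads, Fcer1g 22, Ptprc 20 and Itgam 4. The part of macrophages in these results was not tested. Of 10 epithelial and mesothelial markers, 3 were higher and 0 lower than all 3 controls and 4 higher and 1 lower than control replicates 2 and 3, with a median of 0.72 and 1.09. Epcam, Krt8 (1.87 and 1.76) and Lrrn4 (1.22 and 1.48) were higher in both comparisons, Krt19 was lower than control replicates 2 and 3 (-0.31 and -0.49), and the summed level of the 10 was 77.2 to 91.7 CPM after Oboxa7 and 53.9 to 116 CPM in the controls. The part of epithelial cells was not tested.

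Integrins, the receptors through which cells hold the matrix, changed in both directions. Itga1, the alpha subunit of a collagen receptor, had 16.1, 16.3 and 14.2 CPM after Oboxa7 and 9.59, 8.8 and 8.28 CPM in the controls, with log2 fold changes of 0.80 and 0.86, and Itga6, that of a laminin receptor, had 138, 125 and 167 CPM after Oboxa7 and 161, 249 and 273 CPM in the controls, with log2 fold changes of -0.67 and -0.87. All 3 Oboxa7 libraries were above the controls for Itga1, and for Itga6 the highest of them overlapped control replicate 1. Of 18 integrin genes, 2 were higher and 2 lower than all 3 controls and 5 higher and 4 lower than control replicates 2 and 3, the second set including Itga11, another collagen receptor subunit (0.34 and 1.07). Of 21 serpins and other secreted protease inhibitors, 5 were higher and 1 lower than all 3 controls and 8 higher and 2 lower than control replicates 2 and 3, with Slpi the most raised and Pi15 (-0.48 and -0.83) lower than control replicates 2 and 3 alone. Against all 3 controls, leaving out Oboxa7 replicate 1 left 3 higher metalloprotease genes, 1 apolipoprotein gene and 3 serpin genes. Against control replicates 2 and 3, leaving out control replicate 3 left 6 higher metalloprotease genes, 5 complement genes, 3 integrin genes and 4 serpin genes. Of 24 p53 target genes, the death receptor Fas (0.69 and 0.62), Trp53inp1 (0.63 and 0.64) and Btg2 were higher in both comparisons and 0 were lower in either (0 and 2 had an unadjusted edgeR p below 0.05 in that direction, and DESeq2 called 0). For the lists of this paragraph the shares of all genes called were 3.33% and 7.62% higher and 2.34% and 4.3% lower.

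Interferon-stimulated and Hox genes were called only where control replicate 1 was set aside. Stat2, a transducer of the interferon signal, had 192, 170.0 and 174 CPM after Oboxa7 and 237, 119 and 117 CPM in the controls. Control replicate 1 was above the Oboxa7 libraries and control replicates 2 and 3 below them, and the log2 fold changes were 0.18 and 0.60. Iigp1 (0.33 and 0.86) and Ifit3 (0.28 and 0.61) showed the same order of libraries. Among the 34 genes of this interferon list, 0 were higher and 0 lower than all 3 controls and 13 higher and 0 lower than control replicates 2 and 3. Against all 3 controls 3 were higher and 0 lower at an unadjusted p under 0.05 and DESeq2 called 1 higher, and without control replicate 1 the first fit called 7 higher. Hoxc6, a patterning gene of the trunk, had 25.2, 23.7 and 23 CPM after Oboxa7 and 49.3, 14.4 and 12.7 CPM in the controls, with log2 fold changes of -0.09 and 0.82, and Hoxc8 (0.39 and 0.95), Hoxb9 (0.09 and 0.67) and Hoxc4 (0.16 and 0.76) followed it. Of 36 Hox genes, 0 were higher and 0 lower than all 3 controls and 16 higher and 0 lower than control replicates 2 and 3 (in the first comparison DESeq2 also called 0, and 0 had an unadjusted edgeR p below 0.05), and 7 higher in the first fit without control replicate 1. Neighbouring Hoxc transcripts overlap and may share reads. Among all genes tested 3.33% were higher than all 3 controls and 7.62% than control replicates 2 and 3.

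**Figure D5:**
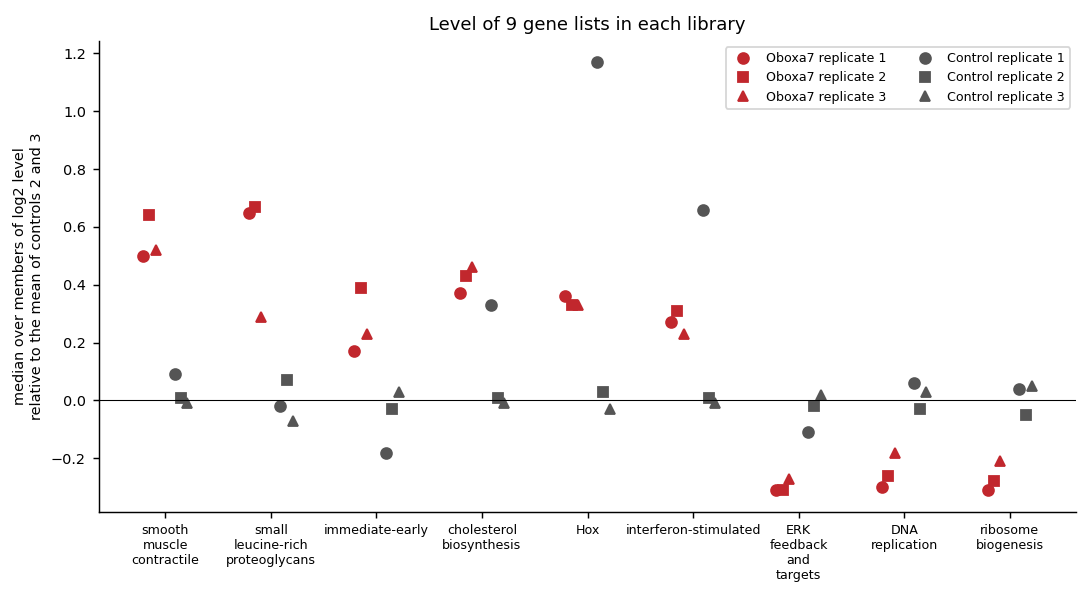
Median over the members of 9 gene lists of the log2 level (CPM with 0.5 added) in each library, relative to the mean of control replicates 2 and 3, with Oboxa7 in red and controls in grey. Control replicate 1 (grey circle) lies above all Oboxa7 libraries for Hox genes (1.17) and interferon-stimulated genes (0.66), just below them for cholesterol biosynthesis (0.33), and with the other controls for DNA replication and ribosome biogenesis.

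Genes that regulate the early embryo, where Obox genes are normally active, were largely below the filter in these cells, where 20 of the 47 listed genes present in the table passed the filter. Tet1, a DNA demethylase, rose, with 5.96, 4.28 and 4.62 CPM after Oboxa7 and 3.15, 2.32 and 2.47 CPM in the controls and log2 fold changes of 0.90 and 1.05. Sox2, a pluripotency factor, had 6.93, 5.89 and 9.03 CPM after Oboxa7 and 2.02, 14.9 and 17 CPM in the controls. Control replicate 1 was below the Oboxa7 libraries and the other controls above them, so that Sox2 was lower than control replicates 2 and 3 (-1.12 ± 0.16) and not called against all 3 (-0.63 ± 0.59). Slco2a1, a prostaglandin transporter, was likewise lower only against control replicates 2 and 3 (-0.68 and -0.86). With Epcam and Krt8, 3 were higher and 0 lower than all 3 controls and 3 higher and 5 lower than control replicates 2 and 3. Epcam and Krt8, also counted among the epithelial markers, were below 1 CPM in every Oboxa7 and control library. Where 1 CPM in 3 libraries was required, 14 members were tested. Of these, 1 was higher and 0 lower than all 3 controls, and 1 was higher and 5 lower than control replicates 2 and 3. Of the genes in a temporal expression profile, a group that the study drew from embryo time courses and of which 57 genes were held here and 47 tested, 3 were higher than all 3 controls and 6 than control replicates 2 and 3 and by edgeR 0 were lower in either, where DESeq2 called 0 lower and 4 and 6 had an unadjusted edgeR p below 0.05 (3.33% and 7.62% of all genes tested were called higher). The called members were Ly6c1, with log2 fold changes of 1.37 and 1.30, Ypel2 (0.56 and 0.41), Tmem64 (0.35 and 0.30, called only against all 3), and Hoxb9, Itm2a (0.33 and 0.39), Ier5l (0.09 and 0.57) and Siglecg (-0.04 and 0.51), called only against control replicates 2 and 3. The list's median was -0.02 and -0.02, beside -0.001 and 0.005 for all genes.

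Some genes were called in a single comparison. Against control replicates 2 and 3 alone 646 genes were higher and 325 lower, led upward by Cxcl9, a T cell chemokine, with 1.99, 1.82 and 1.87 CPM after Oboxa7 and 1.13, 0.059 and 0.289 CPM in the controls, and by Myh1, Syt1 (1.14 and 1.72), Olfml1 (2.28 and 2.17) and Dnase1l3 (1.86 and 1.73). The lowered genes were led by the chemokine Ccl20, with 0.965, 0.759 and 0.56 CPM after Oboxa7 and 0.693, 2.71 and 1.99 CPM in the controls and log2 fold changes of -1.24 and -1.65, and by Hs3st1, a heparan sulphate sulphotransferase (-1.64 ± 0.20 in that comparison), Blnk (-1.21 and -1.5), Ncam2 (-1.0 and -1.41) and Tmem179 (-1.12 and -1.41). For Cxcl9 control replicate 1 was the control nearest to the Oboxa7 libraries, and for Ccl20 and Hs3st1 it lay within their range. Against all 3 controls alone 44 were higher and 50 lower, among them Ccin (0.97 and 0.90), Kcnip4 (0.68 and 0.68), Mfsd7a (0.62 and 0.58) and Klf10 (-0.53 and -0.32), with about the same sizes in both comparisons for all but Klf10.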

How the data were processed

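The authors aligned reads with STAR to mouse GRCm38 (mm10) and counted them per gene with featureCounts, on an NCBI annotation of protein-coding genes with Obox rows added. The sources used here give no versions, strand setting or handling of multiply matching reads. The deposited table holds raw counts of 15 libraries in 22063 rows. Rows passing edgeR's filter (14012) were scaled by TMM, which corrects library totals for a few dominant genes, and tested with edgeR 4.0.16 in R 4.3.3. SE is the log2 fold change divided by the square root of its F statistic, and CPM and RPKM use TMM-scaled library totals. Alternatives were DESeq2 1.42.0, other scaling and filters, the fold threshold and leaving out each library. Motifs were sought in RefSeq windows of GRCm38.p6. Depth of the 6 libraries was 31239855 to 42778823 counts, and precision at low CPM is limited by counting error. Genes named are the 12 largest changes each way called in both comparisons with libraries that do not overlap and at least 1 CPM, the 5 largest each way called in 1 comparison or differing from both Obox genes, up to 4 called members of each list, 10 genes named by the study and called profile members; members and lists were chosen with earlier results of these data known. No Obox or Crxos row was ranked, but 7 of them were tested and stay in the counts of called genes. Some genes that meet these rules are not reported here. The tests were also run on simulated counts in which no control library stood apart. That run cannot show how the tests fare with a control such as replicate 1.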

Additional observations from a re-analysis of the deposited data

Results flagged for a closer look

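Reads appeared in the Obox1 row of the Oboxa7 libraries, a row left out of the ranking of genes above but not out of the genes tested. The 3 Oboxa7 libraries held 17, 24 and 34 reads there and the controls 0. Obox1 is the earlier name of Oboxa4, a relative of Oboxa7 and the gene inserted in the Oboxa4 libraries of the series. Those libraries held 2338 to 3712 reads in this row. The treatment of reads matching both genes was not given, and the source of the reads in the Oboxa7 libraries was not tested.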

How the results depend on the processing

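The counts of called genes depended on the threshold and on single libraries. Without a fold threshold 703 genes were lower than all 3 controls and 1478 lower than control replicates 2 and 3. When the fold threshold itself was tested (glmTreat), 66 genes were higher and 14 lower than all 3 controls, and 349 higher and 163 lower than control replicates 2 and 3. Leaving out each library in turn gave 171 to 842 higher and 86 to 479 lower genes against all 3 controls, and 597 to 1145 higher and 405 to 677 lower against control replicates 2 and 3. Against all 3 controls the higher and lower counts were 171 and 86 with Oboxa7 replicate 1 left out, 208 and 139 with Oboxa7 replicate 2 left out and 214 and 149 with control replicate 3 left out, and 842 genes were higher without Oboxa1 replicate 3. Against control replicates 2 and 3 the higher count was 597 without control replicate 3, a comparison then resting on a single control whose spread is assumed to equal that of the other groups. DESeq2's Wald test gave 613 and 388, and 991 and 537. Against all 3 controls, Ddit4 and Hoxc6 changed sign without control replicate 1, with log2 fold changes that ranged from -0.30 to 0.64 and from -0.41 to 0.82 as each library was left out. The causes were not tested.

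With the replicate number as a block 410 genes were higher and 287 lower than all 3 controls, and 1079 and 614 than control replicates 2 and 3. The deviations of same-numbered libraries from their group means had correlations of 0, -0.04 and 0.06. Because control replicate 1 stands apart, the deviations of the controls mostly reflect that library. The correlations therefore cannot decide whether the numbers pair the samples, and the labels give no dates by which to match them.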

Other observations

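Since Rbp3 is a photoreceptor gene, 40 genes of photoreceptors were looked at, in a list written after the values of Rbp3 had been seen. Of these, 16 passed the filter and 24 did not, with at most 13 reads in any of the 6 libraries among the latter. Called higher were 2 against all 3 controls and 3 against control replicates 2 and 3, beside 3.33% and 7.62% of all genes tested, and 0 were lower in either. Both counts include Rbp3, the gene that prompted the list, and nothing is read from them. Besides Rbp3 the called genes were Guca1a, an activator of retinal guanylate cyclase, with 159, 174 and 203 reads after Oboxa7 and 83, 98 and 92 in the controls (log2 fold changes of 0.82 and 0.73), and Cngb1, a subunit of the rod cation channel, with 26, 27 and 23 reads against 17, 9 and 12 (0.86 and 1.08), called only against control replicates 2 and 3.

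In the other lists, the first of each pair of counts is against all 3 controls and the second against control replicates 2 and 3, where 3.33% and 7.62% of all genes tested were called higher and 2.34% and 4.3% lower. Of 29 chemokine and cytokine genes, 1 and 4 were higher and 2 and 5 lower, with Cxcl14 at log2 fold changes of 0.68 and 1.00. Of 22 insulin-like growth factor genes, 2 and 6 were higher and 0 and 2 lower, with Igfbp5 at 0.50 and 0.84 and Stc2 at -0.42 and -0.71. Of 33 genes of amino acid and unfolded protein stress, 0 and 1 were higher and 2 and 6 lower, and of 18 collagen-modifying enzymes, 0 and 3 were higher and 1 and 1 lower. Of 7 endothelial markers, 0 and 0 were higher and 1 and 2 lower, and the 8 tested markers of neural crest and Schwann cells were called in neither comparison.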
